A study of Homo sapiens with 48 samples.

Results

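Calcium pumps and store-release genes of uveal melanoma cells were followed under 2 inhibitors. The set holds 10 of the 58870 genes listed in the count files. ATP2A3 was selected on its 24 h levels: under FHT-1015 it was lower than in DMSO in line 92-1 and higher in line MEL202. The 9 others (ATP2A2, ATP2B1, ATP2B4, ITPR1, ITPR2, ITPR3, STIM1, STIM2 and ORAI1) were taken by function, with results of these data already known. ATP2A3 at 24 h of FHT-1015 is therefore described without a test, and counts for that time are over the other 9 genes. All 10 genes passed the filter on low counts in each of the 4 experiments.

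Calcium is held at a high concentration in the endoplasmic reticulum and at a low one in the cytosol. SERCA pumps (ATP2A genes) load the store and PMCA pumps (ATP2B genes) push calcium out of the cell, while receptors for inositol trisphosphate (IP3; ITPR genes) release it from the store when phospholipase C makes IP3. STIM proteins sense an emptied store and open ORAI channels in the plasma membrane. In uveal melanoma, activating mutations of Gq-family alpha subunits are common, and these subunits switch on phospholipase C, which makes both IP3 and the lipid that activates protein kinase C.

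RNA was sequenced from 48 samples in 16 groups of 3, which the titles call biological replicates. The lines 92-1, MEL202 and MP41, each labelled uveal melanoma and wild type, received FHT-1015, an inhibitor of SMARCA4 and SMARCA2 (the ATPases of BAF chromatin remodelling complexes), or DMSO, for 4 or 24 h. Line 92-1 also received IDE196, a protein kinase C inhibitor, or a second set of DMSO samples at the same times. Each line with a drug and its own DMSO is called an experiment here, of 12 samples. The labels give no doses, and they do not say whether replicates came from separate cultures, so p-values measure the spread between these samples, which may be technical.

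Reads in genes ran from 11394088 to 32317711 per sample. Levels are given as CPM, the reads of a gene divided by the scaled library size and expressed per 1e6 reads. 9 of the 48 libraries stood apart from their replicates, with an SD of log2 differences of 0.411 to 0.762, against at most 0.381 in the rest: MEL202 DMSO replicates 1 to 3 at 4 h and 1 and 2 at 24 h, MEL202 FHT-1015 replicates 2 and 3 at 4 h, and MP41 DMSO replicates 2 and 3 at 24 h. The summed level of 10 melanocyte markers was 19545 to 23723 CPM in DMSO and 4963 to 18397 CPM in FHT-1015 in 92-1. In MEL202 it was 8387 to 10231 against 2889 to 9946 CPM, and in MP41 12516 to 16323 against 5658 to 14331 CPM. Under IDE196 it was 17550 to 22318 CPM, against 16660 to 19966 CPM in its DMSO. All 10 markers were above 1 CPM on average in the DMSO samples of each experiment, and the summed leukocyte, endothelial and erythroid markers stayed at or under 4.67, 4.30 and 0.369 CPM. Summed fibroblast markers (6 genes) were at 2.61 to 4.18 CPM in DMSO and 3.29 to 12.5 CPM in FHT-1015 in 92-1, 6.62 to 8.21 and 8.28 to 41.4 CPM in MEL202, 19.6 to 43.8 and 22.8 to 40.9 CPM in MP41, and 7.09 to 41.0 CPM in DMSO and 12.6 to 31.2 CPM in IDE196. Summed epithelial markers (5 genes) were at or under 8.81 CPM in the FHT-1015 experiments, and at 6.06 to 25.2 CPM in DMSO and 5.60 to 28.1 CPM in IDE196. The mitochondrial share of reads was 6.61 to 7.54% in 92-1 DMSO and 7.32 to 9.55% in FHT-1015, 3.32 to 5.91% and 4.14 to 7.77% in MEL202, 1.30 to 3.64% and 2.42 to 5.96% in MP41, and 3.79 to 6.31% in DMSO and 4.89 to 7.74% in IDE196. The part of these differences in the results below was not tested. In bulk RNA, fewer cells of a type and less RNA per cell cannot be told apart.

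In untreated cells ATP2A2 was the main SERCA transcript of all 3 lines, and the main IP3 receptor transcript was ITPR3 in 92-1 and MEL202 and ITPR1 in MP41. Per kilobase of transcript, ATP2A2, the SERCA pump found in most tissues, stood at 108 ± 10 CPM per kb in 92-1, 221 ± 53 in MEL202 and 250 ± 16 in MP41 (SD, n = 6 DMSO samples of the FHT-1015 experiment of each line, both times). ATP2A3, the SERCA pump known from blood cells and some epithelia, stood at 10.03 ± 0.54, 0.965 ± 0.23 and 2.74 ± 1.1 CPM per kb in the same order. ATP2A2 was thus the main SERCA transcript in every group, with at least 90.8% of the family on average.

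ITPR3, the IP3 receptor typical of secretory epithelia, spanned the widest range, with a level of 14.9 ± 1.2 CPM per kb in 92-1, 4.39 ± 2.5 in MEL202 and 0.143 ± 0.043 in MP41. ITPR1, the receptor best known from neurons, was at 0.869 ± 0.10, 1.21 ± 0.51 and 3.94 ± 0.59 CPM per kb. ITPR2, a receptor sensitive to low IP3, was at 1.03 ± 0.18, 1.03 ± 0.45 and 0.841 ± 0.22 CPM per kb. At 4 h of DMSO, ITPR3 made up 88.4% ± 2.1 of the IP3 receptor transcripts per kilobase in 92-1 and 66.3% ± 8.6 in MEL202, while in MP41 ITPR1 made up 82.6% ± 3.7 (SD, n = 3). With lengths from all merged exons, the MP41 share of ITPR1 was 61.0%.

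ORAI1, the pore of the store-operated channel, followed the opposite order to ITPR3: 22.1 ± 2.8 CPM per kb in 92-1, 45.6 ± 7.1 in MEL202 and 131 ± 64 in MP41. The PMCA pumps were closer together, with ATP2B1 at 10.97 ± 1.2, 11.3 ± 3.0 and 9.55 ± 4.1 CPM per kb and ATP2B4 at 10.9 ± 1.8, 19.6 ± 6.9 and 15.5 ± 4.4. The store sensor STIM1 was at 9.52 ± 0.85, 12.9 ± 3.0 and 15.0 ± 4.8 CPM per kb, and STIM2, the sensor that responds to smaller losses of store calcium, at 15.0 ± 2.6, 14.0 ± 3.7 and 8.81 ± 1.7.

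The 6 DMSO samples of 92-1 in the IDE196 experiment did not stand at the same levels. They held 162 ± 18 CPM per kb of ATP2A2, 13.8 ± 0.88 of ATP2A3, 1.56 ± 0.20 of ITPR2, 14.4 ± 0.91 of STIM1 and 29.7 ± 3.1 of ORAI1 (SD, n = 6). In a fit of all 48 samples ATP2A2, ITPR2, STIM1 and ORAI1, 4 of the 9 genes other than ATP2A3, were higher than in the other DMSO samples of 92-1, by log2 differences of 0.43 (ORAI1) to 0.59 (ATP2A2, ITPR2 and STIM1) and edgeR adjusted p up to 0.0255 (ITPR2), where 40.1% of 18871 genes differed. ATP2B1, ATP2B4, ITPR1, ITPR3 and STIM2 did not pass, with log2 differences of 0.20 to 0.34.

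ATP2A3 was left out of the counts between untreated lines, since its 24 h DMSO values in 92-1 and MEL202 had a part in choosing it. Between untreated MEL202 and 92-1, 5 of the 9 other genes differed in edgeR's quasi-likelihood test with Benjamini-Hochberg adjustment (adjusted p under 0.05), where 52.9% of all genes tested did. Between MP41 and 92-1 it was 7 of 9 (65% of all genes), and between MP41 and MEL202 4 of 9 (56%). The contrasts with 92-1 share the 92-1 DMSO samples, and a line cannot be told apart from the experiment it was grown in. In the 4 h DMSO samples alone, which did not choose it, ATP2A3 was lower in MEL202 than in 92-1 by a log2 difference of -3.14 (edgeR adjusted p = 8.9e-13, SE 0.23; 38.1% of all genes differed). Its level in MP41 lay between, at -2.22 (edgeR adjusted p = 3.5e-10, SE 0.22; 48.8%) against 92-1 and 0.92 (edgeR adjusted p = 0.000979, SE 0.22; 43.2%) against MEL202. ITPR3 differed most in MP41 against 92-1, by -6.68 (edgeR adjusted p = 3.54e-16, SE 0.38), and by -1.76 (edgeR adjusted p = 5.77e-06, SE 0.29) in MEL202 against 92-1. ORAI1 was higher in MEL202 than in 92-1 by 1.08 (edgeR adjusted p = 3.62e-09, SE 0.12) and higher again in MP41 than in MEL202 by 1.42 (edgeR adjusted p = 6.07e-12, SE 0.12). ATP2B1 and ITPR2 did not pass in the 3 contrasts, except ATP2B1 in MP41 against MEL202 without MP41 DMSO 24 h replicate 3 (edgeR adjusted p = 0.0423). ITPR1 in MEL202 against 92-1 (edgeR adjusted p = 0.0963) passed when low counts were kept and without MEL202 DMSO 4 h replicate 3 or FHT-1015 4 h replicate 2. ATP2B4 in MP41 against MEL202 (edgeR adjusted p = 0.0849) passed when low counts were kept, with limma-voom and without MEL202 DMSO 4 h replicate 3 or 24 h replicate 1. The neighbours in the order of ATP2A2 in MEL202 and MP41 did not pass the test (edgeR adjusted p = 0.226). The call for STIM1 in MEL202 against 92-1 (edgeR adjusted p = 0.0105) was lost without MEL202 DMSO 4 h replicate 1 (0.0534), and that for ATP2B4 in MP41 against 92-1 (0.016) without MP41 DMSO 4 h replicate 2 (0.0538).

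With the DMSO samples of the IDE196 experiment standing for 92-1, 6 of the 9 genes differed in MEL202 (54.1% of all genes) and 7 of 9 in MP41 (62.2%). STIM1 then differed in neither line: it was at -0.16 in MEL202 (edgeR adjusted p = 0.331, SE 0.14) and 0.05 in MP41 (edgeR adjusted p = 0.792, SE 0.14). ITPR2 was lower than in 92-1 in both, by -0.60 (edgeR adjusted p = 0.0163, SE 0.21) and -0.88 (edgeR adjusted p = 0.000483, SE 0.22). STIM2 was lower in MEL202 (-0.31, edgeR adjusted p = 0.0201) and ATP2B1 in MP41 (-0.48, edgeR adjusted p = 0.0468), while ATP2B4 no longer passed in MP41 (0.489). The differences of ATP2A2, ITPR3 and ORAI1 from 92-1 passed with either set of controls, in the same directions. That of ATP2A2 was 1.07 in MEL202 and 1.24 in MP41 with the first set and 0.45 and 0.63 with the second, and that of ORAI1 in MEL202 was 0.62 with the second.

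**Figure D1:**
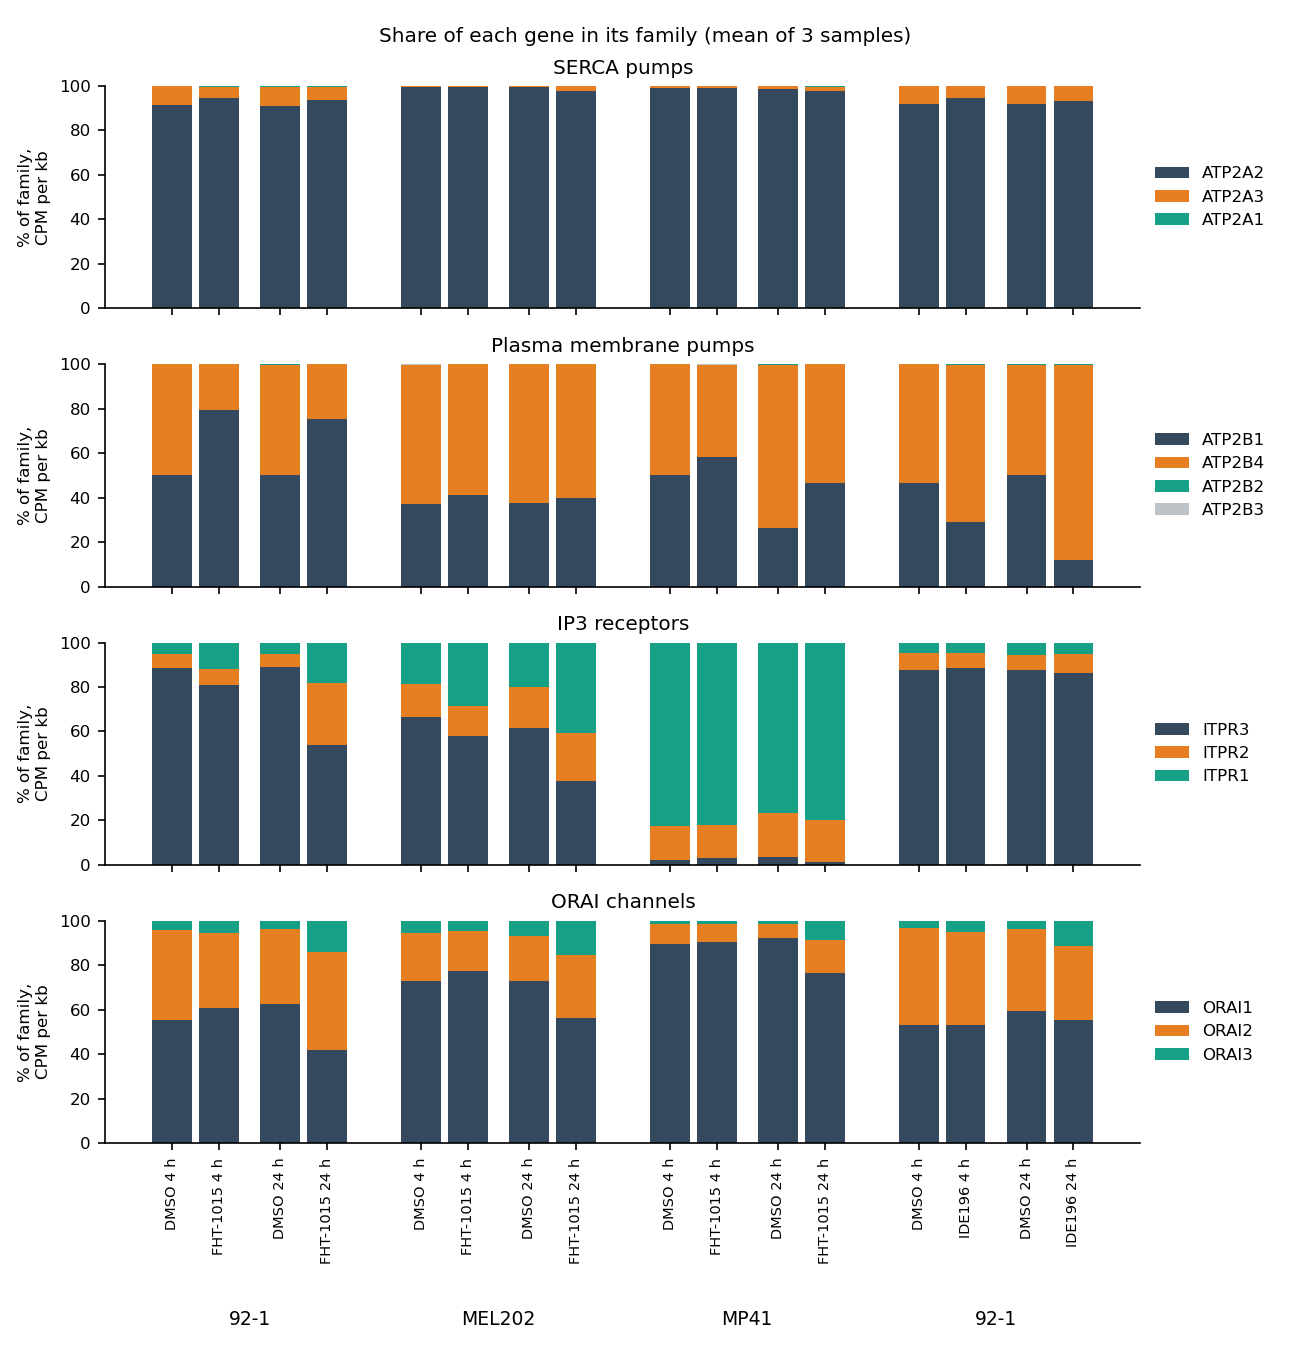
Shares (%) of each family's summed CPM per kb taken by its members, as stacked bars over the 16 groups (mean of 3 samples); the panels are SERCA, PMCA, IP3 receptors and ORAI. ATP2A2 fills nearly all of the SERCA panel, ITPR3 most of the IP3 receptor panel in 92-1 and almost none of it in MP41, and the PMCA bars of 92-1 shift toward ATP2B1 under FHT-1015 and toward ATP2B4 under IDE196.

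The promoters of 4 genes are shown because the first pair fell under FHT-1015 in 92-1 at 24 h and the second pair moved in opposite directions under the 2 drugs. Each is the 250 bases directly upstream of the RefSeq start (GRCh38.p14), 5′ to 3′ on the gene's own strand, with capitals marking the GC box GGGCGG or its reverse complement CCGCCC. ATP2A2 covers chr12:110280366-110280615 (plus strand), ITPR3 chr6:33621072-33621321 (plus), ATP2B1 chr12:89709367-89709616 (minus) and ATP2B4 chr1:203626582-203626831 (plus).
ATP2A2: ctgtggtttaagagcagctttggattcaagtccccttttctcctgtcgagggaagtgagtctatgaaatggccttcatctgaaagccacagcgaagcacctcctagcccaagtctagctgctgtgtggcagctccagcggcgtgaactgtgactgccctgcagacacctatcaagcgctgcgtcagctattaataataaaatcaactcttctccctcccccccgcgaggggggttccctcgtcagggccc
ITPR3: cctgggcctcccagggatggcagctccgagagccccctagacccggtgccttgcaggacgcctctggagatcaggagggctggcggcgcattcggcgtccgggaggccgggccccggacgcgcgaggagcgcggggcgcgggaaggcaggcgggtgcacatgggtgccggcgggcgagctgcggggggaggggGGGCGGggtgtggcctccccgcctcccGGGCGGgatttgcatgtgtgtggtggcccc
ATP2B1: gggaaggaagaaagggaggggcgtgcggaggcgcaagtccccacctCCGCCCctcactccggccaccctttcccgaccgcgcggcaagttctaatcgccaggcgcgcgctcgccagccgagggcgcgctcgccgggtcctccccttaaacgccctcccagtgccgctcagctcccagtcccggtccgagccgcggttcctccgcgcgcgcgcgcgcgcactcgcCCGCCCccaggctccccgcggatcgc
ATP2B4: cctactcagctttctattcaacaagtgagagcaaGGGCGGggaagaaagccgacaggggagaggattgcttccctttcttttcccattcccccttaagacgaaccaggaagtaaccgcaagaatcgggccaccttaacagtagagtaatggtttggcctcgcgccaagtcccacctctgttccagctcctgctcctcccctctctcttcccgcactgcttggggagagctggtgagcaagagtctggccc
The ITPR3 and ATP2B1 windows were 76.8% and 75.2% G or C with 26 and 38 CpG pairs, against a median of 58% and 11 pairs over 35116 promoters. Those of ATP2A2 and ATP2B4 were 54.8% and 55.6% G or C with 9 and 8 CpG pairs. GC boxes occurred 2 times in ITPR3 and in ATP2B1, 1 time in ATP2B4 and 0 times in ATP2A2, and 42.6% of all promoters held one. Of the 10 genes 7 had an entry, and ATP2A3, ITPR2 and ORAI1 had none. CACGTG (6.34% of all promoters), TCATGTG (2.52%), ACAAAG (13.7%), TGANTCA (6.57%) and TGACGTCA (1.65%) were searched on both strands and had no match in the 7 windows.

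By GENCODE release 29 on GRCh38, ATP2A3 (ENSG00000074370.18) lies on chromosome 17 from 3923870 to 3964464 on the minus strand, ATP2A2 (ENSG00000174437.17) on chromosome 12 from 110280756 to 110351093 on the plus strand, and ITPR3 (ENSG00000096433.11) on chromosome 6 from 33620365 to 33696574 on the plus strand. ATP2B1 (ENSG00000070961.15) lies on chromosome 12 from 89588049 to 89709300 on the minus strand, ATP2B4 (ENSG00000058668.14) on chromosome 1 from 203626561 to 203744081 on the plus strand, and ORAI1 (ENSG00000276045.3) on chromosome 12 from 121626550 to 121642677 on the plus strand. The counts were taken over whole genes without strand. ITPR3 shares 1025 exon bases, 10.4% of its exons, with UQCC2 on the opposite strand. Reads there cannot be assigned without strand and are left out of the unstranded count as ambiguous. The summed strand columns, at 1.12 to 3.83 times the unstranded count of ITPR3, take in reads of that stretch, which may come from UQCC2.

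FHT-1015 at 24 h lowered ORAI1 in all 3 lines, by 2.71-fold in 92-1, 2.14-fold in MEL202 and 3.94-fold in MP41. In 92-1 it also lowered ITPR3, ATP2A2 and ATP2B4 and raised ATP2B1 and ITPR2. IDE196 in the same line did the reverse for the PMCA pumps, lowering ATP2B1 and raising ATP2B4. ATP2A3 was lower under both drugs in 92-1 and higher in MEL202 at 24 h of FHT-1015.

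Under FHT-1015 in 92-1, 1 of 10 genes rose and 4 fell at 4 h, where 29.5% of 15685 genes tested passed (12.9% higher, 16.7% lower). At 24 h 2 of 9 rose and 4 fell, where 60.6% passed (29.2% higher, 31.4% lower), so the share of members was close to the background. In MEL202 none of 10 passed at 4 h (0.679% of 15913 genes, 0.157% higher and 0.522% lower), and 1 rose and 1 fell of 9 at 24 h (18.8%, 8.69% higher and 10.1% lower). In MP41 none of 10 passed at 4 h (0.225% of 15543 genes, 0.0708% higher and 0.154% lower), and 1 rose and 2 fell of 9 at 24 h (36.1%, 17.4% higher and 18.7% lower). Under IDE196, 1 rose and 2 fell of 10 at 4 h (16.2% of 15437 genes, 6.89% higher and 9.3% lower), and 2 rose and 3 fell at 24 h (58.1%, 28.7% higher and 29.4% lower). At an unadjusted p under 0.05, 1 of 10 passed in MEL202 (8.58% of all genes) and 1 of 10 in MP41 (5.78%) at 4 h. With adjustment, limma-voom called 0 in MEL202 (0.723% of all genes) and 1 in MP41 (4.18%), and DESeq2 called 0 in both (2.36% and 1.13%). The median log2 fold change of the genes tested lay between -0.25 (92-1, 4 h) and 0.13 (MEL202, 24 h), and that of all genes between -0.02 and 0.07.

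**Figure D2:**
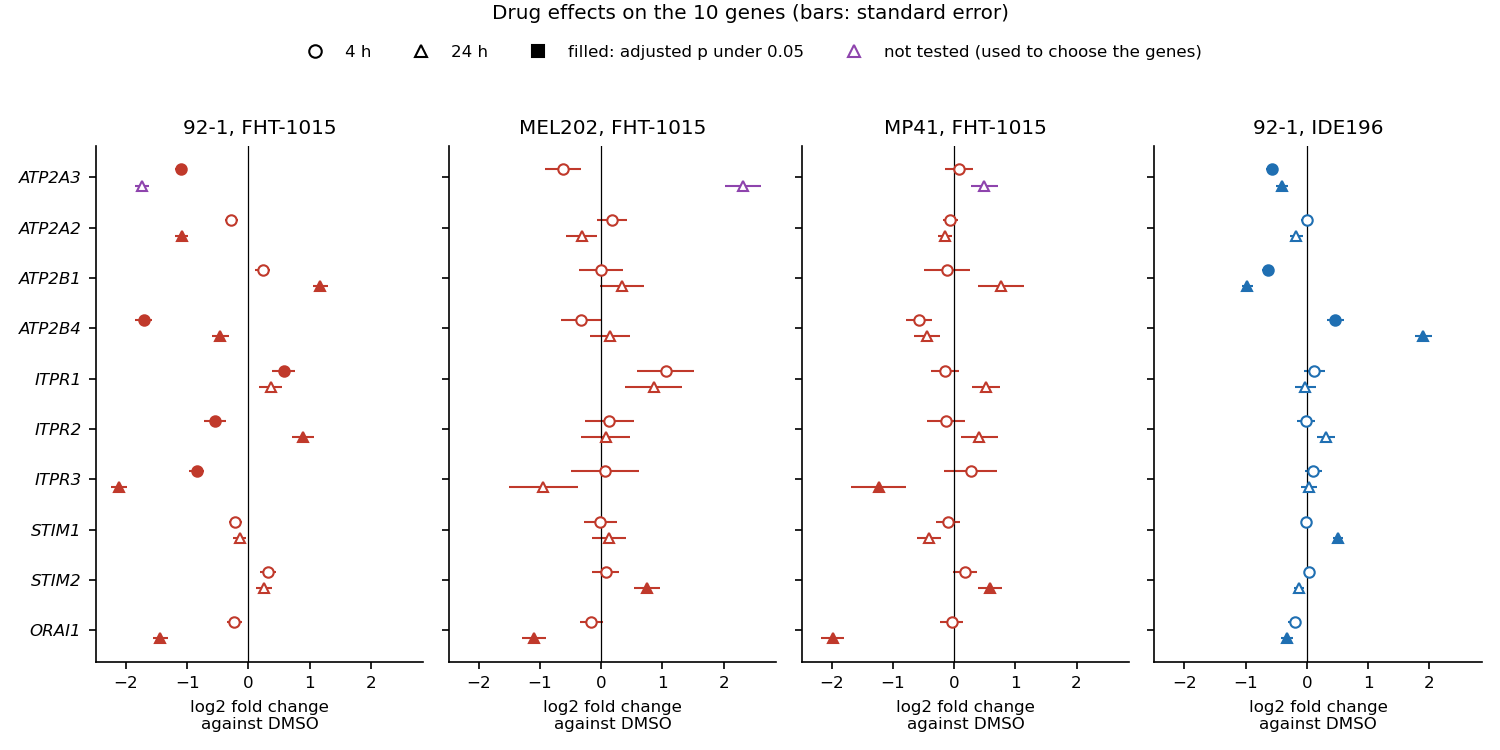
Log2 fold change of each gene against its own DMSO (x axis, bars are standard errors) in the 4 experiments, with circles for 4 h and triangles for 24 h; filled symbols passed an adjusted p of 0.05 and purple marks ATP2A3 at 24 h of FHT-1015, which was not tested. ORAI1 lies left of 0 at 24 h in all 4 panels, and ATP2B1 and ATP2B4 lie on opposite sides in the 2 panels of 92-1.

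ATP2A3 was chosen for its opposite directions in 92-1 and MEL202 at 24 h. In 92-1 it stood at 32.8, 33.5 and 34.6 CPM in DMSO and 14.9, 15.7 and 17.4 CPM in FHT-1015 at 4 h. It fell by a log2 fold change of -1.10 (edgeR adjusted p = 9.25e-07, SE 0.10), 2.14-fold, and all 3 treated samples lay below all 3 controls. At 24 h the values were 30.1, 34.9 and 32.1 CPM in DMSO and 9.89, 9.28 and 10.4 CPM in FHT-1015, a log2 fold change of -1.74 (SE 0.11).

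MEL202 started from a far lower level. At 4 h ATP2A3 was at 4.43, 3.42 and 3.31 CPM in DMSO and 1.90, 3.24 and 2.10 CPM in FHT-1015, with a log2 fold change of -0.63 (edgeR adjusted p = 0.597, SE 0.30), so the treated samples were the lower ones but did not pass. At 24 h it was at 2.29, 2.62 and 2.98 CPM in DMSO and 9.85, 15.3 and 13.8 CPM in FHT-1015. That log2 fold change was 2.32 (SE 0.30), 4.99-fold. The 24 h values of both lines chose the gene, so their distance from the controls is a description only. The treated MEL202 samples overlapped the treated 92-1 samples at 24 h, while the untreated samples of the 2 lines lay far apart.

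In MP41 ATP2A3 was at 9.14, 16.2 and 7.63 CPM in DMSO and 14.3, 14.8 and 14.9 CPM in FHT-1015 at 24 h. The groups overlapped through DMSO replicate 2, which is among the libraries that stood apart, and the log2 fold change was 0.49 (SE 0.22), or 0.24 to 0.82 as each sample was left out. At 4 h it was 0.08 (edgeR adjusted p = 1, SE 0.23). IDE196 lowered ATP2A3 in 92-1 at 4 h, from 46.6, 44.8 and 44.5 to 33.8, 29.1 and 28.8 CPM, a log2 fold change of -0.57 (edgeR adjusted p = 0.000426, SE 0.10). At 24 h it went from 45.0, 50.4 and 41.7 to 37.1, 34.5 and 35.6 CPM, -0.40 (edgeR adjusted p = 0.00152, SE 0.10). No treated sample overlapped its controls, and both IDE196 calls were lost when all 48 samples shared a single estimate of the spread (edgeR adjusted p = 0.0553 and 0.118).

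**Figure D3:**
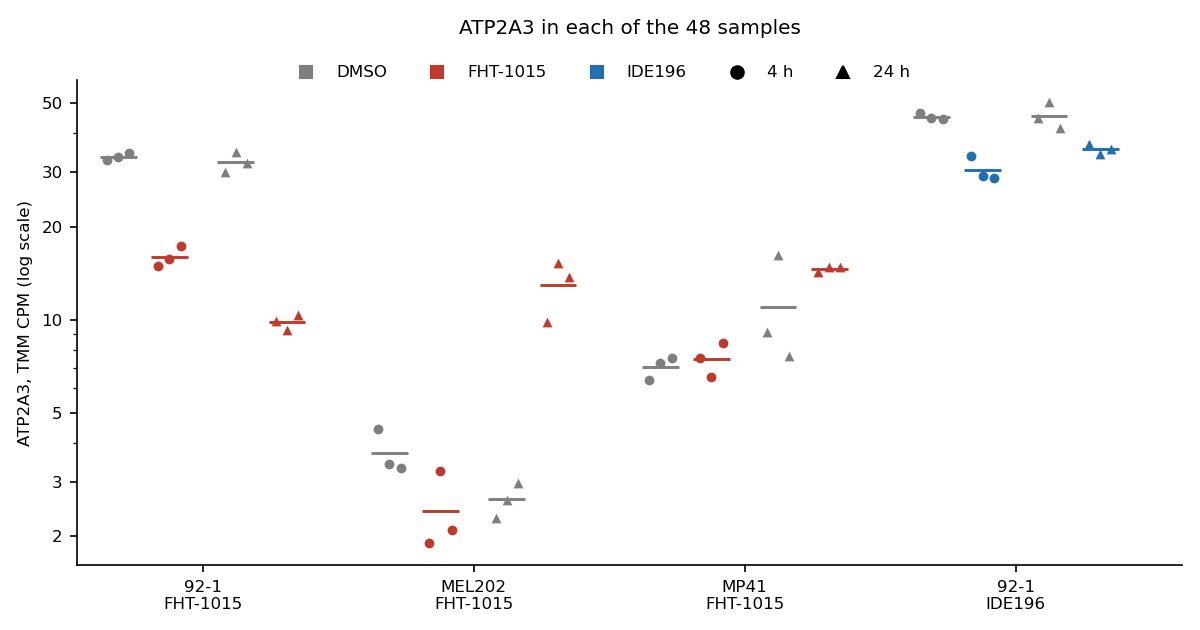
ATP2A3 in each of the 48 samples (CPM, log axis), by experiment and arm, with circles for 4 h, triangles for 24 h and bars for the mean of 3 samples. The 24 h FHT-1015 samples of 92-1 and MEL202 lie between 9.28 and 15.3 CPM, from controls at 30.1 to 34.9 and 2.29 to 2.98 CPM.

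ATP2A2, the main SERCA transcript, fell in 92-1 at 24 h. At 4 h its level in 92-1 was 449, 475 and 481 CPM in DMSO and 437, 418 and 324 CPM in FHT-1015, -0.28 (edgeR adjusted p = 0.0539, SE 0.10). At 24 h it was 461, 375 and 406 CPM in DMSO and 182, 205 and 206 CPM in FHT-1015, a log2 fold change of -1.09 (edgeR adjusted p = 2.8e-07, SE 0.10) or 2.12-fold, with no overlap. The log2 fold change at 24 h was -0.32 (edgeR adjusted p = 0.43, SE 0.25) in MEL202 and -0.15 (edgeR adjusted p = 0.36, SE 0.12) in MP41, and in MEL202 it passed with limma-voom (-0.35, adjusted p = 0.0208). Under IDE196 it was -0.17 (edgeR adjusted p = 0.168, SE 0.10), and it passed without DMSO 24 h replicate 6 (-0.29, edgeR adjusted p = 0.018). The 4 h value in 92-1 passed with DESeq2, limma-voom or the replicate block, and without DMSO 24 h replicate 1 (0.0389), FHT-1015 4 h replicate 1 (0.0234) or FHT-1015 24 h replicate 1 (0.0464).

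The share of ATP2A3 in the SERCA transcripts at 24 h was 8.94% ± 1.4 in DMSO and 5.82% ± 0.49 in FHT-1015 in 92-1. In MEL202 it was 0.376% ± 0.057 and 2.30% ± 0.65, and in MP41 1.27% ± 0.41 and 1.99% ± 0.17 (SD, n = 3). With merged exon lengths the shares were 13.5% and 8.95% in 92-1, 0.601% and 3.62% in MEL202 and 2.02% and 3.14% in MP41. By either length ATP2A3 was a minor SERCA transcript in MEL202 in both arms.

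The PMCA pumps ATP2B1 and ATP2B4 moved against each other in 92-1. ATP2B1, the pump expressed in most cells, was at 84.4, 62.0 and 72.6 CPM in DMSO and 146, 166 and 189 CPM in FHT-1015 at 24 h. It rose by 1.18 (edgeR adjusted p = 8.99e-07, SE 0.13) on the log2 scale, 2.26-fold, with all treated samples above the controls. At 4 h the difference was 0.24 (edgeR adjusted p = 0.17, SE 0.12), with overlap, and it passed without FHT-1015 4 h replicate 3 (0.36, edgeR adjusted p = 0.0326) and with limma-voom (0.0157).

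Under IDE196 the same pump fell. ATP2B1 went from 94.5, 82.6 and 88.4 to 53.3, 58.6 and 59.7 CPM at 4 h, a log2 fold change of -0.64 (edgeR adjusted p = 9.96e-05, SE 0.09). At 24 h it went from 102, 89.0 and 85.1 to 50.6, 45.7 and 49.3 CPM, -0.97 (edgeR adjusted p = 9.54e-08, SE 0.09), 1.96-fold lower. Treated and control samples did not overlap at either time, and the 4 h call was lost with a single estimate of the spread over 48 samples (edgeR adjusted p = 0.33).

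ATP2B4, a pump with a calmodulin-binding tail like ATP2B1, fell early under FHT-1015 in 92-1 and came part of the way back. It was at 113, 92.9 and 101 CPM in DMSO and 37.8, 30.3 and 26.9 CPM in FHT-1015 at 4 h, -1.71 (edgeR adjusted p = 4.27e-07, SE 0.15), 3.28-fold lower. At 24 h it was at 119, 75.8 and 84.7 and 73.4, 67.0 and 65.4 CPM, -0.46 (edgeR adjusted p = 0.0111, SE 0.14), 1.37-fold lower. The groups did not overlap at either time. The 24 h call was lost without DMSO 24 h replicate 1 (-0.28, edgeR adjusted p = 0.0747) and in the fit of all 48 samples (0.166).

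IDE196 raised ATP2B4 most of the 10 genes at 24 h. From 131, 123 and 96.6 CPM in DMSO it went to 434, 417 and 501 CPM, a log2 fold change of 1.90 (edgeR adjusted p = 4.82e-09, SE 0.14) or 3.73-fold, with every treated sample far above the controls. At 4 h the values were 159, 118 and 114 and 207, 177 and 156 CPM, 0.46 (edgeR adjusted p = 0.0279, SE 0.14), with overlap. This 4 h call was lost without DMSO replicate 5 (edgeR adjusted p = 0.111) or 6 (0.153), without IDE196 replicate 1 (0.143) or 2 (0.0663), and in the fit of all 48 samples (0.397).

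ATP2B1 held 50.1% ± 2.4 of the PMCA transcripts per kilobase in 92-1 DMSO at 24 h and 75.4% ± 3.5 in FHT-1015. In the IDE196 experiment it held 50.2% ± 2.4 in DMSO and 12.1% ± 0.92 in IDE196 (SD, n = 3). From an even split, the family moved to mostly ATP2B1 under FHT-1015 and to mostly ATP2B4 under IDE196.

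The PMCA pumps did not pass by edgeR in MEL202 or MP41, with exceptions among the alternatives. In MP41 at 24 h ATP2B1 was at 51.2, 16.2 and 77.6 CPM in DMSO and 88.2, 72.8 and 80.8 CPM in FHT-1015, 0.77 (edgeR adjusted p = 0.131, SE 0.38). The control values spread widely, and without DMSO replicate 3, whose value lies within the treated range, ATP2B1 passed at 1.26 (edgeR adjusted p = 0.00295). As each sample was left out, ATP2B1 ran from 0.34 to 1.26 (edgeR adjusted p up to 0.26). It also passed with all samples when low counts were kept (0.75, edgeR adjusted p = 0.00112) and with limma-voom (0.67, adjusted p = 0.000669). ATP2B4 at 24 h was at 156, 204 and 147 CPM in DMSO and 139, 106 and 110.4 CPM in FHT-1015, -0.44 (edgeR adjusted p = 0.113, SE 0.21), and it too passed without that replicate (-0.58, 0.0317) and with limma-voom (0.0108), as it did at 4 h with limma-voom (-0.53, 0.0289). In MEL202 at 24 h ATP2B1 was at 0.34 (edgeR adjusted p = 0.575, SE 0.36; 0.0467 with limma-voom) and ATP2B4 at 0.14 (edgeR adjusted p = 0.817, SE 0.32).

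Among the IP3 receptors, ITPR3 fell and ITPR2 rose by 24 h of FHT-1015 in 92-1. ITPR3 was at 145, 149 and 139 CPM in DMSO and 94.5, 83.8 and 66.3 CPM in FHT-1015 at 4 h, -0.85 (edgeR adjusted p = 9.21e-05, SE 0.12). At 24 h it was at 169, 138 and 144 and 41.5, 33.3 and 30.8 CPM, -2.12 (edgeR adjusted p = 2.01e-09, SE 0.13), 4.33-fold lower. The treated samples were below the controls at both times, and the 24 h samples were the lowest. The sum of both strand columns, which counts the part shared with UQCC2 differently, gave -0.63 at 4 h and -1.96 at 24 h for ITPR3, and the 4 h call was lost in the fit of all 48 samples (edgeR adjusted p = 0.153).

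ITPR3 in MP41 lay at the edge of detection, at 1.80, 1.45 and 1.69 CPM in DMSO and 0.918, 0.544 and 0.581 CPM in FHT-1015 at 24 h, -1.23 (edgeR adjusted p = 0.0438, SE 0.44). The groups did not overlap, but the call was lost without DMSO 4 h replicate 1 (0.0552) or 3 (0.0544), DMSO 24 h replicate 1 (0.11) or 3 (0.0503), or FHT-1015 24 h replicate 2 (0.128) or 3 (0.127). It was also lost without the low-count filter (0.0506), with only the samples compared (0.0578), in the fit of all 48 samples (0.0627) and with the replicate block (0.0605). In MEL202 ITPR3 was at 20.5, 52.9 and 35.0 CPM in DMSO and 20.2, 17.7 and 17.4 CPM in FHT-1015 at 24 h, -0.95 (edgeR adjusted p = 0.283, SE 0.56), with the treated samples below the controls. There ITPR3 passed when low counts were kept (edgeR adjusted p = 0.0067), with only the samples compared (0.023), in the fit of all 48 samples (0.0405) and with limma-voom (0.00559). Under IDE196 ITPR3 was at 0.04 (edgeR adjusted p = 0.843, SE 0.14) at 24 h.

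ITPR2 in 92-1 went from 11.1, 9.40 and 12.8 CPM in DMSO to 19.2, 18.6 and 24.4 CPM in FHT-1015 at 24 h, 0.89 (edgeR adjusted p = 0.000489, SE 0.18), 1.85-fold higher with no overlap. At 4 h its direction was the opposite, 10.5, 11.5 and 15.4 CPM in DMSO and 10.3, 8.56 and 6.78 CPM in FHT-1015, -0.55 (edgeR adjusted p = 0.0328, SE 0.18). That 4 h call was lost without DMSO replicate 3 (-0.37, edgeR adjusted p = 0.175), FHT-1015 replicate 2 (0.0846) or 3 (0.118), and in the fit of all 48 samples (0.341). ITPR2 did not pass in MEL202, MP41 or under IDE196, except under IDE196 at 24 h without IDE196 24 h replicate 1 (0.45, edgeR adjusted p = 0.0171, beside 0.32 and 0.0779 with all samples).

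ITPR1 was the gene that rose at 4 h in 92-1, from 7.16, 7.42 and 9.04 to 15.6, 11.4 and 8.59 CPM, 0.58 (edgeR adjusted p = 0.0273, SE 0.18), with overlap. The call was lost without DMSO replicate 1 (edgeR adjusted p = 0.0959) or 2 (0.0947), without FHT-1015 replicate 1 (0.33, 0.161) or 2 (0.0548), and in the fit of all 48 samples (0.305). At 24 h the ITPR1 value was 0.37 (edgeR adjusted p = 0.102, SE 0.19) in 92-1, 0.85 (edgeR adjusted p = 0.24, SE 0.47) in MEL202 and 0.51 (edgeR adjusted p = 0.0949, SE 0.23) in MP41. In MEL202 it passed when low counts were kept (edgeR adjusted p = 0.0444), with only the samples compared (0.0108), in the fit of all 48 samples (0.0438) and with limma-voom (0.000601). In MP41 it passed without FHT-1015 24 h replicate 2 (0.70, 0.037). There ITPR1 ran from 0.22 to 0.70 as each sample was left out (edgeR adjusted p up to 0.449), and the lowest alternative was 0.16.

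The makeup of the IP3 receptor transcripts differed between arms accordingly. ITPR3 held 88.9% ± 1.3 in 92-1 DMSO and 54.1% ± 6.5 in FHT-1015 at 24 h, while ITPR2 held 5.70% ± 0.88 and 27.7% ± 4.2 and ITPR1 5.36% ± 0.45 and 18.2% ± 2.4. In MEL202 the ITPR3 share was 61.5% ± 4 and 37.5% ± 1.9, and that of ITPR1 19.9% ± 1.9 and 40.5% ± 4.4 (SD, n = 3). With merged exon lengths, the share of ITPR3 in 92-1 was 93.0% and 64.1%, and that of ITPR1 1.66% and 6.41%. In MEL202 they were 73.1% and 54.2% for ITPR3 and 6.99% and 17.4% for ITPR1, so that ITPR1 led after treatment with the first set of lengths and ITPR3 with the second. IDE196 left ITPR3 at 86.5% ± 2 of the family at 24 h, beside 87.5% ± 1.2 in its DMSO.

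**Figure D4:**
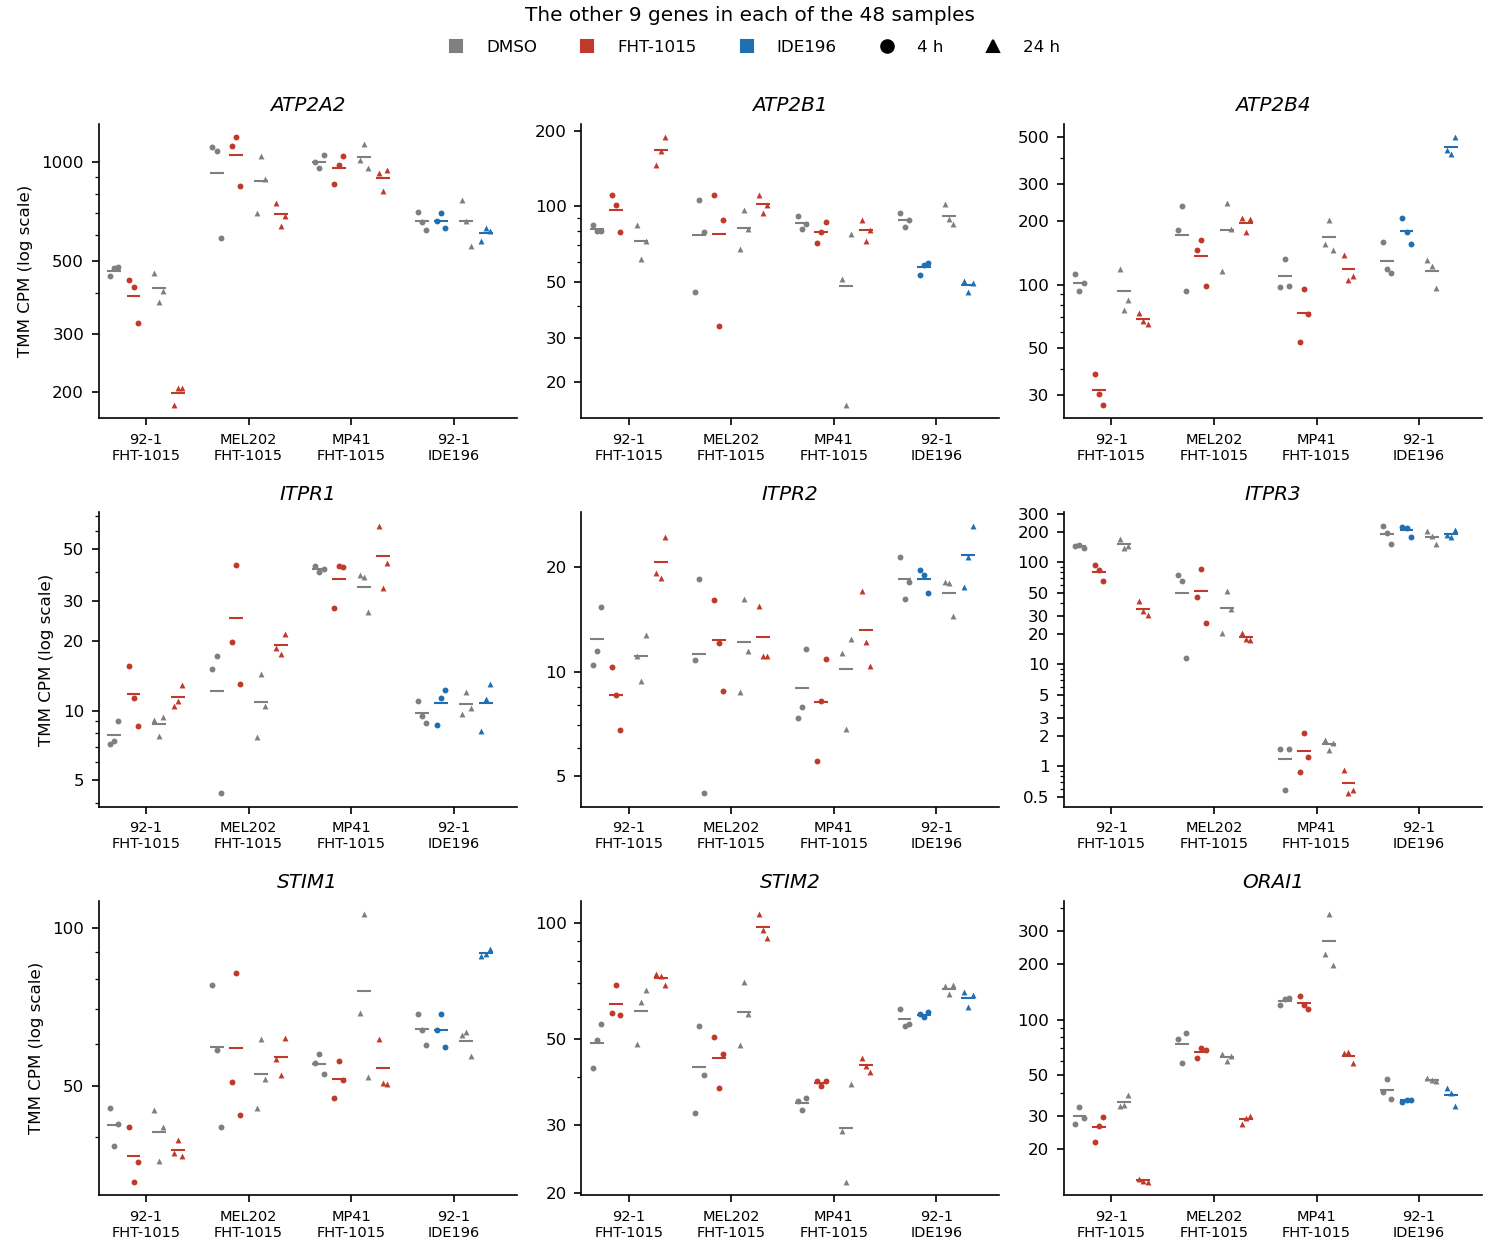
CPM (log axis) of the 9 other genes in each of the 48 samples, with circles for 4 h, triangles for 24 h and bars for the mean of 3 samples. ORAI1 at 24 h of FHT-1015 lies below its controls in each line, and ITPR3 in MP41 lies at or under 2.14 CPM in every sample.

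Of the store sensors, STIM2 rose under FHT-1015 in MEL202 and MP41, and STIM1 rose under IDE196. STIM2 at 24 h of FHT-1015 was at 48.3, 70.6 and 58.2 CPM in DMSO and 106, 95.9 and 91.7 CPM treated in MEL202, 0.75 (edgeR adjusted p = 0.0263, SE 0.22). In MP41 it was at 28.9, 21.4 and 38.2 and 44.8, 42.5 and 41.2 CPM, 0.58 (edgeR adjusted p = 0.031, SE 0.19), and in 92-1 at 48.6, 62.6 and 67.0 and 73.8, 73.1 and 69.1 CPM, 0.25 (edgeR adjusted p = 0.101, SE 0.13). All 3 treated samples lay above all 3 controls in each line, and the test passed in MEL202 and MP41. In 92-1 STIM2 passed at 24 h with the replicate block (edgeR adjusted p = 0.0462) or without DMSO 24 h replicate 3 (0.0466), and at 4 h (0.32 on the log2 scale, edgeR adjusted p = 0.0793) with the replicate block (0.0371), without the low-count filter (0.0257), with limma-voom (0.00257) or without DMSO 24 h replicate 1 (0.0379).

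Both STIM2 calls were fragile. In MEL202 the call was lost without DMSO 24 h replicate 1 (edgeR adjusted p = 0.122) or 3 (0.0945), without FHT-1015 24 h replicate 1 (0.105), 2 (0.0781) or 3 (0.0658), and without the low-count filter (0.0547). In MP41 it was lost without DMSO 24 h replicate 1 (0.0854) or 2 (0.37, 0.0588), FHT-1015 4 h replicate 3 (0.0521), FHT-1015 24 h replicate 1 (0.0858), 2 (0.0684) or 3 (0.0571), and with only the samples compared (0.155).

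STIM1 rose under IDE196 at 24 h, from 62.6, 63.4 and 56.9 CPM in DMSO to 88.3, 89.2 and 91.3 CPM, 0.51 (edgeR adjusted p = 6.84e-05, SE 0.09), 1.42-fold higher with no overlap. At 4 h it was at -0.01 (edgeR adjusted p = 0.961, SE 0.09). STIM1 passed in no FHT-1015 comparison by edgeR with all samples of the experiment, with log2 fold changes from -0.41 (MP41, 24 h) to 0.13 (MEL202, 24 h). At 4 h in 92-1 it passed without FHT-1015 4 h replicate 1 (edgeR adjusted p = 0.0411) and with limma-voom (0.0125). In MP41 at 24 h it passed with limma-voom (0.00307), in the fit of all 48 samples (0.0463) and without DMSO 24 h replicate 3 (-0.67, edgeR adjusted p = 0.00327). There STIM1 ran from -0.67 to -0.14 as each sample was left out (edgeR adjusted p up to 0.504).

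ORAI1 was the gene that fell in every line at 24 h of FHT-1015. In 92-1 it was at 34.1, 34.4 and 39.3 CPM in DMSO and 13.7, 13.4 and 13.3 CPM treated, -1.44 (edgeR adjusted p = 1.32e-07, SE 0.13). In MEL202 it was at 65.3, 59.7 and 63.4 and 27.3, 29.4 and 30.0 CPM, -1.10 (edgeR adjusted p = 0.00146, SE 0.19). In MP41 it was at 225, 372 and 196 and 65.6, 67.0 and 58.3 CPM, -1.98 (edgeR adjusted p = 4.63e-06, SE 0.19). Treated samples lay below controls without overlap in the 3 lines, and each call passed under every alternative run and without each sample in turn.

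At 4 h ORAI1 did not pass in any line by edgeR, and in 92-1 it passed with limma-voom (adjusted p = 0.0429). The 4 h values in MP41 were 119.7, 129 and 130.0 CPM in DMSO and 134, 119.6 and 114 CPM in FHT-1015, -0.04 (edgeR adjusted p = 1, SE 0.18). In MP41 the DMSO samples themselves differed between the times, 24 h against 4 h by 0.97 (edgeR adjusted p = 0.0238, SE 0.18), where 2.59% of all genes did. The ORAI1 call was lost without any 1 of the 3 MP41 DMSO 4 h samples (largest adjusted p 0.137). Without MP41 DMSO 24 h replicate 3, by contrast, 5 of the 9 genes other than ATP2A3 differed between the DMSO times, where 42.6% of all genes did. In the other 3 experiments none of these 9 passed (0.344% of all genes in 92-1, 0% in MEL202 and 0.266% in the IDE196 experiment), with 2, 1 and 1 at an unadjusted p under 0.05 (8.81%, 2.07% and 14.3% of all genes), and DESeq2 called 1 in the IDE196 experiment (2.36%).

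IDE196 lowered ORAI1 by less, from 48.4, 47.1 and 46.4 CPM to 42.6, 40.1 and 34.3 CPM at 24 h, -0.32 (edgeR adjusted p = 0.0132, SE 0.10). That call was lost without IDE196 24 h replicate 3 (-0.24, edgeR adjusted p = 0.0711) and in the fit of all 48 samples (0.166). ORAI1 took 62.8% ± 2 of ORAI transcripts per kilobase in 92-1 DMSO and 41.8% ± 1.1 in FHT-1015 at 24 h, 72.8% ± 2.1 and 56.4% ± 1.7 in MEL202, and 92.3% ± 0.92 and 76.6% ± 1.2 in MP41. ORAI3, a related channel subunit, took 3.90% ± 1 and 13.9% ± 1.4, 7.02% ± 1.7 and 15.2% ± 0.82, and 1.58% ± 0.26 and 8.66% ± 1.1 in the same order.

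The time courses differed from gene to gene in 92-1. The 24 h effect of FHT-1015 differed from its 4 h effect in 6 of 9 genes, where 45.5% of all genes did. ATP2B4, whose effect was nearer to 0 at 24 h, had a difference of 1.25 (edgeR adjusted p = 0.000126, SE 0.20), and ITPR2, which changed sign, 1.43 (edgeR adjusted p = 0.000295, SE 0.25). ATP2B1 had not passed at 4 h, and its effects at the 2 times differed by 0.94 (edgeR adjusted p = 0.000457, SE 0.18). The effects on ITPR3, ORAI1 and ATP2A2 grew more negative, by -1.27 (edgeR adjusted p = 3.4e-05, SE 0.18), -1.21 (edgeR adjusted p = 5.32e-05, SE 0.18) and -0.81 (edgeR adjusted p = 0.000324, SE 0.15). In the fit of all 48 samples ATP2B1 (edgeR adjusted p = 0.120) and ITPR3 (0.0695) were not called.

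In MP41 the same contrast passed for 1 of 9 genes (18.6% of all genes), ORAI1 at -1.94 (edgeR adjusted p = 0.000268, SE 0.26), and in MEL202 for 0 of 9 (6.89%), with ORAI1 at -0.94 (edgeR adjusted p = 0.0539, SE 0.27). At an unadjusted p under 0.05, 2 of the 9 passed in MEL202 (20.5% of all genes), and limma-voom (16%) and DESeq2 (11.8%) each called 1, ORAI1. By edgeR, ORAI1 passed in MEL202 without DMSO 4 h replicate 1 or 3. Under IDE196, 2 of 10 passed (30.7%): ATP2B4 at 1.44 (edgeR adjusted p = 2.97e-05, SE 0.19) and STIM1 at 0.52 (edgeR adjusted p = 0.00348, SE 0.12). STIM1 was not called there in the fit of all 48 samples (edgeR adjusted p = 0.204).

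The FHT-1015 effect differed among the 3 lines in 0 of 10 genes at 4 h (1.38% of 18395 genes) and in 2 of 9 at 24 h (12%). At 4 h the smallest values were those of ATP2A3 (edgeR adjusted p = 0.0876) and ATP2B4 (0.0895), 2 genes had an unadjusted p under 0.05 (9.69% of all genes), and DESeq2 and limma-voom each called 2 (2.58% and 8.08% of all genes). At 24 h ORAI1 differed (edgeR adjusted p = 0.0157), with effects of -1.44 in 92-1, -1.10 in MEL202 and -1.98 in MP41. Its level in MP41 DMSO was 126 ± 5.7 CPM at 4 h and 265 ± 94 CPM at 24 h (SD, n = 3), and the part of this in the line difference was not tested. The call for ORAI1 was lost without MP41 DMSO 24 h replicate 2 or MP41 FHT-1015 24 h replicate 3 (adjusted p up to 0.0928) and without the low-count filter (0.104). ATP2A2 differed as well (edgeR adjusted p = 0.0333), with effects of -1.09, -0.32 and -0.15. That call was lost in 8 of 36 leave-outs, with adjusted p up to 0.103: 92-1 DMSO 24 h replicates 1 and 3, 92-1 FHT-1015 24 h replicates 1, 2 and 3, MP41 DMSO 24 h replicate 1 and MP41 FHT-1015 24 h replicates 1 and 3. ITPR3, ATP2B1 and ITPR2, which passed in 92-1, did not pass among the lines by edgeR, with adjusted p of 0.37, 0.436 and 0.432. Without the low-count filter ITPR3 passed, and ORAI1 did not. Limma-voom with quality weights called all 9 genes, where it called 52.2% of all genes.

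The 2 drugs differed in 92-1, each against its own DMSO. At 4 h their effects differed in 4 of 10 genes (24.6% of 16917 genes), and at 24 h in 6 of 9 (33%). ATP2B4 had a 4 h difference (FHT-1015 minus IDE196) of -2.18 (edgeR adjusted p = 1.52e-08, SE 0.21) and a 24 h difference of -2.36 (edgeR adjusted p = 9.16e-10, SE 0.21). ATP2B1 differed the other way, by 0.87 (edgeR adjusted p = 0.000151, SE 0.16) at 4 h and 2.15 (edgeR adjusted p = 2.83e-11, SE 0.16) at 24 h. The effects on both pumps thus lay on opposite sides of 0 under the 2 drugs at 24 h.

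ITPR3, which fell under FHT-1015 and did not pass under IDE196, differed by -0.96 (edgeR adjusted p = 0.000538, SE 0.19) at 4 h and -2.15 (edgeR adjusted p = 1.83e-09, SE 0.20) at 24 h. ATP2A3 at 4 h was lower under both drugs and more so under FHT-1015, by -0.53 (edgeR adjusted p = 0.00417, SE 0.13). At 24 h ATP2A2 differed by -0.92 (edgeR adjusted p = 2.11e-05, SE 0.15), STIM1 by -0.65 (edgeR adjusted p = 0.000361, SE 0.13) and ORAI1 by -1.11 (edgeR adjusted p = 7.14e-06, SE 0.17). The calls of these drug differences held in every alternative and without each of the 24 samples in turn. STIM2, ITPR2 and ITPR1 did not pass at 24 h, with adjusted p of 0.0532, 0.0695 and 0.28 by edgeR. STIM2 passed with RLE scaling, with DESeq2 and in 17 of 24 leave-outs (edgeR adjusted p from 0.0141 to 0.141 over the 24). ITPR2 passed with limma-voom (0.039) and in 5 of 24 leave-outs, without 92-1 DMSO replicate 3 at 4 h or 24 h, FHT-1015 4 h replicate 3, IDE196 24 h replicate 3 or its DMSO 24 h replicate 6 (edgeR adjusted p from 0.0265). The doses are unknown, and the 2 experiments have separate controls.

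**Figure D5:**
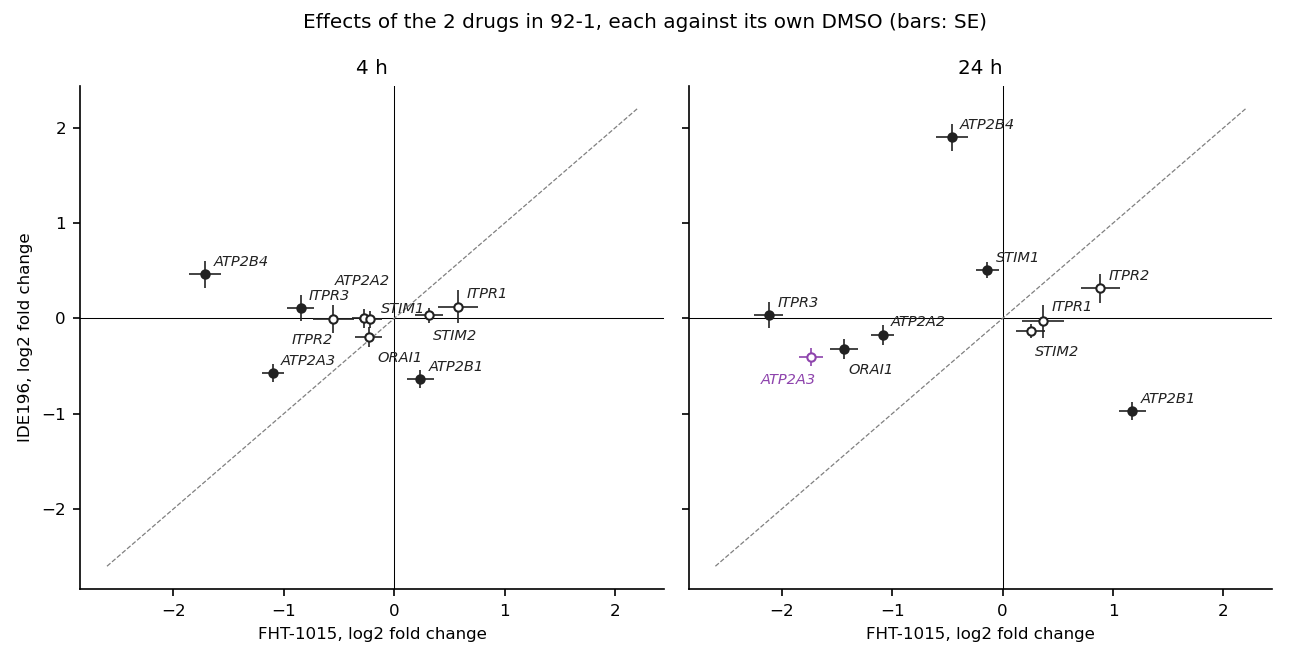
Log2 fold change in 92-1 under FHT-1015 (x axis) and under IDE196 (y axis), each against its own DMSO, at 4 h and 24 h; the dashed line marks equal effects, filled points had a drug difference with adjusted p under 0.05, and purple marks ATP2A3 at 24 h, which was not tested. ATP2B1 (1.18 and -0.97 at 24 h) and ATP2B4 (-0.46 and 1.90) lie in opposite corners.

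Other genes of calcium handling were taken as a list of 86 symbols in 10 roles, of which 85 matched and 67 or 68 were tested per comparison. Under FHT-1015 in 92-1, 7 rose and 17 fell of 68 at 4 h (35.3%, beside 29.5% of all genes) and 17 rose and 32 fell at 24 h (72.1%, beside 60.6%). In MEL202 none of 67 passed at 4 h (beside 0.679% of all genes), and 7 rose and 10 fell at 24 h (25.4%, beside 18.8%). In MP41 none passed at 4 h (beside 0.225% of all genes), and 12 rose and 16 fell at 24 h (41.8%, beside 36.1%). Under IDE196, 2 rose and 8 fell of 68 at 4 h (14.7%, beside 16.2%) and 19 rose and 29 fell at 24 h (70.6%, beside 58.1%).

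The plasma membrane sodium-calcium exchanger SLC8A1 had the largest change of the list in 92-1 at 24 h under either drug, in opposite directions. At 24 h its mean level was 4.37 ± 1.7 CPM in DMSO and 68.6 ± 9.8 CPM in FHT-1015 (SD, n = 3), 3.93 (edgeR adjusted p = 3.25e-10, SE 0.21). In the IDE196 experiment it was 10.4 ± 1.5 CPM in DMSO and 0.343 ± 0.38 CPM treated, -5.06 (edgeR adjusted p = 1.48e-08, SE 0.41). SLC8A1 thus shared its direction with ATP2B1, the pump that also exports calcium, under either drug.

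SLC8A1 also rose most of the list in MP41 at 24 h, from 24.4 ± 6.3 to 83.2 ± 14 CPM, 1.81 (edgeR adjusted p = 2.99e-05, SE 0.22). In MEL202 the largest rise at 24 h was that of SLC8A2, a related exchanger, from 2.96 ± 1 to 11.6 ± 0.45 CPM, 2.01 (edgeR adjusted p = 0.000427, SE 0.30). The largest fall in 92-1 was that of JPH1, a junctophilin that ties the store to the plasma membrane, from 28.2 ± 1.2 to 2.46 ± 0.57 CPM, -3.51 (edgeR adjusted p = 4.6e-11, SE 0.15). In MEL202 it was PLCB2, a phospholipase C, at -2.01 (edgeR adjusted p = 0.0017, SE 0.36), and in MP41 ITPKB, a kinase that removes IP3, at -1.48 (edgeR adjusted p = 0.000146, SE 0.22). Under IDE196 the largest rise at 24 h was that of RYR2, a ryanodine receptor of the store, from 0.504 ± 0.13 to 4.77 ± 1.5 CPM, 3.17 (edgeR adjusted p = 2.48e-06, SE 0.40).

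Across the 48 samples the protein-coding genes most like ATP2A3 in log2 CPM, of 10493 with a mean of at least 5 CPM, were UCP2 (Pearson r = 0.921), CDC42BPG (0.894), ARMH4 (0.888), TSHZ1 (0.883) and KIF21B (0.881). These are descriptions without p, since samples of a line share its level. UCP2, an uncoupling protein of mitochondria, averaged 35.6 ± 1.4 CPM in 92-1 DMSO and 21.0 ± 1.3 CPM in FHT-1015 at 24 h, and 3.55 ± 0.62 and 7.44 ± 1.1 CPM in MEL202 (SD, n = 3). CDC42BPG, the next most alike, did not share the lower level in 92-1, with 18.5 ± 0.78 CPM in DMSO and 21.6 ± 1.6 CPM in FHT-1015 at 24 h, and was at 0.612 ± 0.35 and 1.42 ± 0.37 CPM in MEL202. Among the 9 other genes, ITPR3 was the most like ATP2A3 (r = 0.458) and ATP2A2 the least (r = -0.385).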

How the data were processed

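Counts were deposited by the authors as raw reads per gene for each sample, whole numbers arranged as STAR writes its per-gene table, per the file headers. The submitters' processing notes name hg38 and limma; the aligner version and annotation are not given in the sources used here. The unstranded column was used for 48 samples (the first strand held 49.73 to 50.11% of stranded reads), leaving out 92 spike-in rows. Of the 58870 genes, 58552 matched GENCODE release 29.

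Each experiment of 12 samples was fitted over all genes kept by filterByExpr, with TMM scaling and edgeR 4.0.16 quasi-likelihood tests in R 4.3.3, and a 4-group design without covariates. P-values were adjusted by Benjamini-Hochberg over all genes tested, and an adjusted p under 0.05 was called. Differences among lines used the 36 samples of the 3 FHT-1015 experiments, and differences between drugs the 24 samples of 92-1. Printed CPM were scaled over all 48 samples. A prior count of 2 went into log2 CPM. Levels per kilobase used the basic GENCODE transcript with the longest coding sequence.

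The members, the list of 86 calcium genes and the markers were chosen with earlier results of these data known. All 10 members are named. Of the list, the largest rise and fall among called genes of at least 1 CPM are named per 24 h comparison, and those at 4 h are not printed. Alternatives were RLE scaling, no low-count filter, DESeq2 1.42.0, limma-voom 3.58.1 with quality weights, both strand columns summed, only the samples compared, all 48 samples in a single fit, a replicate block, and each sample left out. The alternatives for differences between times and between DMSO times, the leave-outs, the IDE196 DMSO samples and the 4 h DMSO samples of ATP2A3 for untreated lines, and merged exon lengths were chosen after seeing the data. No replicate pair of 48 agreed within sampling noise. On simulated counts, changes of 1 on the log2 scale were recovered in 98, 37, 76 and 99% of cases for the 92-1, MEL202, MP41 and IDE196 experiments (15685, 15913, 15543 and 15437 genes). Only 200 genes with higher counts were changed, at 24 h. The rates therefore do not cover genes with low counts or data where most genes change.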

Additional observations from a re-analysis of the deposited data

Results flagged for a closer look

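Results are given here where the effect of a drug differed between the 2 times or among the 3 lines by a test of the difference itself. Under FHT-1015 in 92-1 the 24 h and 4 h effects differed for ATP2A2 (edgeR adjusted p = 0.000324), ATP2B1 (0.000457), ATP2B4 (0.000126), ITPR2 (0.000295), ITPR3 (3.40e-05) and ORAI1 (5.32e-05). ITPR2 changed sign between the times, the effect on ATP2B4 was nearer to 0 at 24 h, and those on the other 4 were farther from 0. Under FHT-1015 in MP41 the times differed for ORAI1 (edgeR adjusted p = 0.000268), whose DMSO samples also differed between the times. Under IDE196 they differed for ATP2B4 (edgeR adjusted p = 2.97e-05) and STIM1 (0.00348), both with a higher effect at 24 h; STIM1 had not passed at 4 h. Among the lines, the 24 h effect of FHT-1015 differed for ATP2A2 (edgeR adjusted p = 0.0333) and ORAI1 (0.0157).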

How the results depend on the processing

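The direction of every called drug effect held under the alternatives run, and the calls that were lost stand beside their genes above. Counts are given as main count, then count under the alternative; the cause of each move was not tested. In 92-1 at 4 h of FHT-1015 the 1 member that rose became 2 without the low-count filter, 3 with limma-voom, 0 in the fit of all 48 samples and 2 with the replicate block, and the 4 that fell became 7 with limma-voom and 2 in the fit of all 48. In MEL202 at 24 h the 1 that rose became 3 with limma-voom and 2 with only the samples compared or all 48, and the 1 that fell became 2 without the filter, 3 with limma-voom and 2 with only the samples compared or all 48. In MP41 the 0 that fell at 4 h became 1 with limma-voom; at 24 h the 1 that rose became 2 without the filter or with limma-voom and 0 with only the samples compared, and the 2 that fell became 1 without the filter, with only the samples compared or with the replicate block, and 4 with limma-voom. Under IDE196 the fit of all 48 samples gave 0 for the 1 that rose and the 2 that fell at 4 h, and 1 for the 3 that fell at 24 h.

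For differences between the times, MEL202 went from 0 to 1 with DESeq2, limma-voom or summed strands and to 2 in the fit of all 48, MP41 from 1 to 2 without the filter and 4 with limma-voom, and IDE196 from 2 to 1 in the fit of all 48. For DMSO times, MP41 went from 1 to 2 without the filter or in the fit of all 48 and to 6 with limma-voom, and the IDE196 experiment from 0 to 1 with DESeq2. Differences among lines went from 0 to 1 at 4 h without the filter or with the replicate block, to 2 with DESeq2 or limma-voom, and from 2 to 9 at 24 h with limma-voom. Drug differences at 4 h went from 4 to 7 with limma-voom. Of the calcium list, MEL202 went from 0 to 1 lower at 4 h without the filter (0.464% of all genes). At 24 h it went from 7 higher to 12 with DESeq2 (12.1%) and 20 with limma-voom (28.2%), and from 10 lower to 22 with limma-voom (27.3%). MP41 went from 0 to 2 lower at 4 h without the filter (0.272% of all genes) or with DESeq2 (0.818%) and to 4 with limma-voom (2.9%). At 24 h it went from 12 to 21 higher with limma-voom (32.1%). IDE196 went from 2 to 4 higher at 4 h without the filter (3.16% of all genes) or with DESeq2 (7.69%).

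The share of all genes called moved too. In 92-1 at 4 h (29.5%) it was 12.3% without the filter, 42.6% with limma-voom, 11.1% in the fit of all 48 and 33.5% with the block. In MEL202 at 24 h (18.8%) it was 9.27% without the filter, 55.5% with limma-voom, 41% with only the samples compared and 30.4% in the fit of all 48. In MP41 at 24 h (36.1%) it was 17.4% without the filter, 60.7% with limma-voom, 22.2% with only the samples compared and 36.7% with the block, and at 4 h 4.18% with limma-voom. Under IDE196 the fit of all 48 called 4.74% at 4 h and 35.7% at 24 h. For times, it was 11.8% (DESeq2), 16% (limma-voom), 6.81% (summed strands) and 18.3% (all 48) in MEL202, 9.67% (no filter) and 47.3% (limma-voom) in MP41, and 11.4% (all 48) under IDE196. For DMSO times in MP41 (2.59%) it was 7.39% without the filter, 15.3% in the fit of all 48 and 53.4% with limma-voom, and for drug differences at 4 h 31.5% with limma-voom. Among lines at 4 h it was 0.828% without the filter and 1.57% with the block.

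With 1 sample left out, the counts ran from 0 to 2 (92-1 at 4 h, higher), 0 to 1 (MEL202 at 24 h, higher), 0 to 2 higher and 1 to 3 lower (MP41 at 24 h), 0 to 1 (IDE196 at 4 h, higher), 0 to 1 and 1 to 3 (times, MEL202 and MP41), 0 to 6 (DMSO times, MP41), and 0 to 1 and 0 to 2 (lines, 4 h and 24 h). The count of 6 includes ATP2A3. The shares of all genes ran in the same order from 8.66 to 13%, 4.78 to 12%, 12.2 to 24.7% and 14.9 to 24.6%, 4.68 to 6.72%, 3.14 to 9.55% and 12.1 to 36.3%, 0.0869 to 42.6%, and 0.755 to 1.93% and 8.96 to 20.9%. By replicate number, 3 of 18 treated and control pairs had a correlation above 0.1 (from -0.26 to 0.42). Of the 18 treated samples, 12 correlated best with the control of their own number among 3 controls, including every one in MP41. Whether the numbers pair the samples was not tested. Of the drug effects, the replicate block changed the calls of ITPR3 in MP41 at 24 h (0.0605), ATP2A2 (0.0464) and STIM2 (0.0371) in 92-1 at 4 h and STIM2 in 92-1 at 24 h (0.0462, edgeR adjusted p).

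No value that changed sign had passed the test. In MEL202 at 4 h ATP2B1 (-0.00) was 0.27 with limma-voom, 0.0070 with summed strands, 0.015 with only the samples compared and 0.014 in the fit of all 48, ITPR3 was -0.087 with limma-voom and STIM1 0.0024 with only the samples compared. In MP41 at 4 h ITPR2 was 0.059 with limma-voom and ITPR3 -0.0084 with summed strands. Under IDE196 ATP2A2 at 4 h was -0.0012 with RLE or DESeq2 and -0.012 without the filter, ITPR2 0.038 and STIM1 0.031 with limma-voom, and at 24 h ITPR1 was 0.010 with summed strands and 0.022 in the fit of all 48, and ITPR3 -0.011 with limma-voom. Leaving out samples took these values across 0 in MEL202 at 4 h: ATP2A2 (-0.059 to 0.34), ATP2B1 (-0.33 to 0.35), ITPR2 (-0.24 to 0.65), ITPR3 (-0.54 to 0.48), STIM1 (-0.36 to 0.25) and STIM2 (-0.082 to 0.26), and at 24 h ATP2B4 (-0.10 to 0.41) and ITPR2 (-0.12 to 0.32). In MP41 at 4 h they were ATP2A2 (-0.10 to 0.011), ITPR1 (-0.25 to 0.028), ITPR2 (-0.36 to 0.10), ITPR3 (-0.15 to 0.49) and ORAI1 (-0.11 to 0.033). Under IDE196 they were ATP2A2 (-0.055 to 0.042), ITPR2 (-0.094 to 0.10), ITPR3 (-0.052 to 0.25) and STIM1 (-0.071 to 0.040) at 4 h, and ITPR1 (-0.19 to 0.14) and ITPR3 (-0.077 to 0.14) at 24 h. ITPR3 in MP41 had as few as 11 reads in a sample, and the part of counting error in its spread was not tested.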

Other observations

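Transcripts of calcium-binding proteins of the endoplasmic reticulum fell in 92-1 at 24 h of both drugs. Of 9 such genes tested, 9 fell at 24 h of FHT-1015 and 8 at 24 h of IDE196, with none higher, where 31.4% and 29.4% of all genes fell. CALR (calreticulin, the main calcium buffer of the store) was at -0.87 under FHT-1015 (SE 0.09, edgeR adjusted p = 8.85e-07) and at -1.58 under IDE196 (SE 0.10, edgeR adjusted p = 8.19e-10). CANX, a membrane-bound relative of CALR, was the gene that did not pass under IDE196 (-0.18, SE 0.10, edgeR adjusted p = 0.151). This role was singled out after the counts of all 10 roles of the list were seen. In 92-1 at 24 h of FHT-1015, 60.6% of all genes passed (29.2% higher, 31.4% lower), which is the background for the other roles. There 3 of 4 exchangers rose and 0 fell, 4 of 8 genes of store-operated entry rose and 2 fell, and 0 of 2 pumps passed. Of 9 genes of IP3 production 2 rose and 5 fell, as did 2 and 5 of 9 release channels and regulators, and of 14 genes of calmodulin and calcineurin 4 rose and 6 fell. Of 7 genes of mitochondrial uptake 0 rose and 2 fell, of 3 SERCA regulators 1 rose and 2 fell, and of 3 genes of IP3 removal 1 rose and 1 fell.

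In MEL202 and MP41, 3 of the 9 genes fell at 24 h of FHT-1015, and they were CALR, HSPA5 and RCN1 in both lines, where 10.1% and 18.7% of all genes fell. HSPA5, the main chaperone of the store, was at -0.94 in MEL202 (SE 0.20, edgeR adjusted p = 0.00530) and at -0.78 in MP41 (SE 0.14, edgeR adjusted p = 0.000768). RCN1, a reticulocalbin, was at -0.96 in MEL202 (SE 0.20, edgeR adjusted p = 0.00507) and at -0.87 in MP41 (SE 0.15, edgeR adjusted p = 0.000611). These 3 genes were named after their values were seen.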
